A study of Mus musculus with 18 samples.

Results

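Axin2, Nkd1, Sp5, Notum, Dkk1, Rnf43, Znrf3, Lgr5, Apcdd1 and Tnfrsf19 are well-known transcriptional targets of β-catenin, and most of their products act back on the Wnt pathway. These 10 genes were chosen by name, as direct targets and feedback regulators, from the 49671 genes of the count table, and all 10 were found by their Ensembl identifiers. RNA sequencing of mouse embryonic stem (ES) cells in 3D culture was used to follow them in 18 samples, 3 in each of 6 groups.

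E14 ES cells at passage 20 were embedded in growth factor-depleted Matrigel, a basement membrane hydrogel, and grown for 48 h in N2B27 medium in 4 conditions. CH was CHIR99021 at 3 µM, an inhibitor of the kinase Gsk3, and DMSO was the solvent control. 2i was CHIR99021 at 3 µM together with the Mek inhibitor PD0325901 at 0.4 µM, and Fgf2/Activin was Fgf2 at 12 ng/ml with Activin A at 20 ng/ml. The other 2 groups were Esrrb fl/fl ES cells at passage 25, which carry a tamoxifen-inducible Cre and were grown for 24 h in Matrigel with CHIR99021 at 3 µM. They were kept with or without 4-hydroxytamoxifen (4OHT) for 1 day before the 3D culture, to delete the floxed Esrrb gene. All lines had been maintained in 2i with Lif before embedding, so that every culture, DMSO included, started from cells that had been exposed to CHIR99021. The E14 and the Esrrb fl/fl cells differed in line, passage and culture time, and no test was made between them. The paper states in general that its experiments were repeated independently, but the labels do not say whether the 3 samples of a group here were separate cultures, so the p-values measure the spread between these samples, which may be technical.

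In canonical Wnt signalling, a complex built on Axin and Apc lets Gsk3 phosphorylate β-catenin and mark it for degradation. Wnt ligands, bound by Frizzled receptors and the co-receptors Lrp5 and Lrp6, or inhibition of Gsk3 stop this step, and β-catenin then enters the nucleus and activates genes with TCF/LEF proteins. Several of the activated genes encode brakes on the same pathway, placed in the cytoplasm, in the extracellular space or at the receptor. In naive ES cells, β-catenin relieves repression by Tcf7l1 of pluripotency genes, among them Esrrb.

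Per E14 sample, 25388139 to 37158661 reads were counted on genes, and per Esrrb fl/fl sample 19915222 to 20140699. Levels are given as CPM, the counts rescaled to a common library size, with edgeR's TMM factors computed within each cell line. Pou5f1, a marker of pluripotent cells in general, was at 602 CPM or more on average in each of the 6 groups. Nanog, another such marker, was present in all of them, at 44.2 CPM on average in Fgf2/Activin, 293.8 CPM in CH, 506 CPM in 2i, 209 CPM in untreated and 104.6 CPM in 4OHT-treated Esrrb fl/fl cells. In DMSO Nanog was at 25.5 ± 36.7 CPM (SD, n = 3), with between 72 and 2543 counts in the 3 samples. All 10 members passed the filter on low counts in both cell lines, with 16413 genes tested in E14 and 14893 in Esrrb fl/fl cells. The test was edgeR's quasi-likelihood test with p adjusted by Benjamini-Hochberg, and a call needed an adjusted p below 0.01 with a log2 fold change beyond 1 in size.

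**Figure D1:**
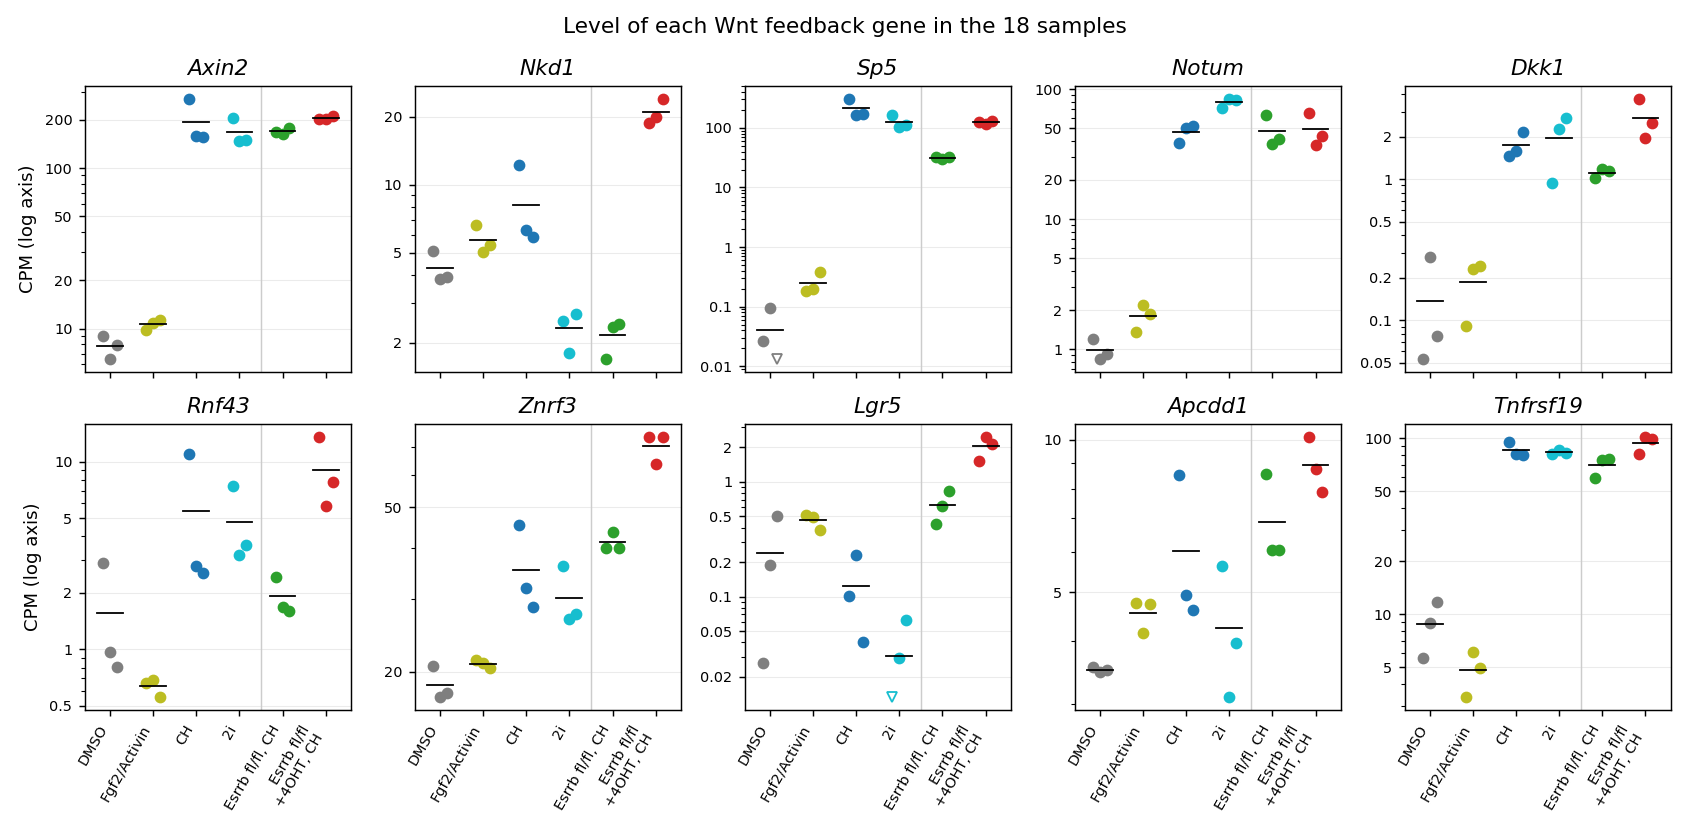
CPM on a log axis of the 10 members in the 18 samples, with 1 point per replicate (1 to 3 from left to right), the group mean as a black line, and an open triangle for a sample with 0 counts, drawn below the gene's smallest value above 0. Axin2, Sp5, Notum, Dkk1, Znrf3 and Tnfrsf19 were higher in all CH and 2i samples than in all DMSO and Fgf2/Activin samples, whereas Nkd1 was lower in 2i than in the other E14 groups.

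The comparison of CH with DMSO asked what inhibition of Gsk3 does to these genes. Of the 10 members, 5 were higher in CH and none was lower, where 7.51% of all tested genes were called higher, 10.2% lower and 17.7% in either direction. The 5 were Axin2, Sp5, Notum, Dkk1 and Tnfrsf19. The median log2 fold change was 2.54 over the 10 members and -0.0022 over all genes tested. The values of 8 members in CH lay above all their values in DMSO, as did those of 24.5% of all genes, and no member lay below, as 25.2% of all genes did. In these bulk samples, fewer cells that express a gene and less RNA per cell cannot be told apart.

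Among the members that act inside the cell, Axin2 encodes a scaffold of the β-catenin destruction complex (GRCm38 chromosome 11, 108920349 to 108950783). Its level in replicates 1 to 3 was 9.02, 6.51 and 7.91 CPM in DMSO and 270.1, 158 and 156 CPM in CH. Both groups were tight apart from CH replicate 1, which was well above the other two, and they did not overlap. The log2 fold change was 4.64 ± 0.25 (SE, n = 3 in each group; edgeR adjusted p = 2.23e-07). In Fgf2/Activin the level was 9.87, 10.8 and 11.4 CPM and in 2i it was 206, 148 and 150 CPM. Means ran from CH through 2i and Fgf2/Activin to DMSO. CH and 2i overlapped and their difference was not called (edgeR adjusted p = 0.684). Fgf2/Activin lay just above DMSO in all samples without being called (log2 fold change 0.45 ± 0.23, edgeR adjusted p = 0.368).

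Sp5, a zinc-finger transcription factor (chromosome 2, 70474923 to 70477729), had almost no reads without CHIR99021. It had 1, 3 and 0 counts in DMSO and 6, 6 and 11 counts in Fgf2/Activin, against 9022, 5014 and 4196 counts in CH and 4802, 3500 and 3615 counts in 2i. The 2 groups with CHIR99021 were thus far above the 2 without it in every sample. Over the summed counts, the level in CH was 5117 times that in DMSO (exact 95% interval 1998 to 18781), and the level in 2i was 3002 times that in DMSO (interval 1172 to 11020). These intervals cover counting error only. Replicate 2 held 3 of the 4 DMSO counts. Without it the ratio to DMSO was 13608 in CH (exact 95% interval 2442 to 537510) and 7985 in 2i (interval 1433 to 315400). CH was above 2i on average, at 307.3, 164 and 168 CPM against 167, 103 and 113 CPM. Their ranges overlapped and the difference was not called (log2 fold change of 2i over CH -0.74 ± 0.26, edgeR adjusted p = 0.132). Each 2i sample was below the CH sample of the same replicate number, and a replicate block did not bring a call either. Sp5 was also the member with the highest level per kilobase of exon in CH, at 101 CPM per kb, followed by Axin2 at 35.3 CPM per kb.

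Nkd1 encodes a cytoplasmic protein that binds Dishevelled and dampens the signal (chromosome 8, 88521354 to 88594884). Its level was 5.10, 3.82 and 3.90 CPM in DMSO, 6.62, 5.06 and 5.39 CPM in Fgf2/Activin and 12.3, 6.28 and 5.88 CPM in CH. In 2i it was 2.51, 1.80 and 2.69 CPM. The 2i samples were thus the lowest of the E14 cells, below every sample of the other 3 groups, while CH and Fgf2/Activin overlapped, as did Fgf2/Activin and DMSO. The difference between CH and DMSO was 0.93 ± 0.29 on the log2 scale and was not called (edgeR adjusted p = 0.022).

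Notum encodes a secreted carboxylesterase that removes the palmitoleate of Wnt ligands (chromosome 11, 120653788 to 120661175). It was at 1.20, 0.845 and 0.926 CPM in DMSO, 1.35, 2.20 and 1.88 CPM in Fgf2/Activin, 38.2, 49.9 and 51.7 CPM in CH and 71.9, 84.1 and 82.9 CPM in 2i. No 2 of these groups overlapped, and 2i was the highest. The log2 fold change was 5.54 ± 0.21 between CH and DMSO (edgeR adjusted p = 2.06e-08). The exons of Notum overlap those of 2 antisense genes, Notumos and Myadml2os, over 38.1% of their length, and the counting ignored strand, so that reads of the overlap cannot be assigned. Notumos itself was counted at 0.230 CPM on average in DMSO, 7.13 CPM in CH and 14.5 CPM in 2i, and the antisense part in the Notum values was not tested. Axin2 shares 3.80% of its exon length with the antisense gene Gm11670, which had at most 10 counts in any sample. No other member overlapped an exon of another gene or shared at least 75 bases of its longest transcript, at 95% identity or more, with a transcript of another gene.

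Dkk1, a secreted antagonist that binds Lrp5 and Lrp6 (chromosome 19, 30545863 to 30549665), was sparsely counted. It had 2, 9 and 2 counts in DMSO and 3, 7 and 7 counts in Fgf2/Activin, against 43, 48 and 54 counts in CH and 27, 77 and 86 counts in 2i. Every sample with CHIR99021 was thus above every E14 sample without it, and CH and 2i overlapped. The log2 fold change between CH and DMSO was 3.62 ± 0.59 (edgeR adjusted p = 5.38e-04). DMSO replicate 2 moved it most, and without that sample it was 4.68, and that between 2i and DMSO was 4.87 in place of 3.81.

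At the membrane, Tnfrsf19, a member of the TNF receptor family (chromosome 14, 60963875 to 61046490), was at 5.63, 8.95 and 11.7 CPM in DMSO and 3.37, 6.05 and 4.94 CPM in Fgf2/Activin. In CH it was at 95.1, 81.1 and 80.6 CPM and in 2i at 81.6, 85.4 and 82.3 CPM. The 2i samples lay within the wider range of CH, both far above the other groups, and DMSO and Fgf2/Activin overlapped. The log2 fold change between CH and DMSO was 3.30 ± 0.25 (edgeR adjusted p = 2.74e-06).

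Rnf43 and Znrf3 are paralogous E3 ubiquitin ligases that remove Frizzled receptors from the cell surface. Rnf43 (chromosome 11, 87662722 to 87735539) was at 2.88, 0.970 and 0.810 CPM in DMSO, 0.662, 0.690 and 0.556 CPM in Fgf2/Activin, 11.0, 2.78 and 2.56 CPM in CH and 7.45, 3.19 and 3.59 CPM in 2i. Replicate 1 was the highest of its group in DMSO, CH and 2i, by more than the other two differed from each other, and DMSO replicate 1 lay above CH replicates 2 and 3. The log2 fold change between CH and DMSO was 1.79 ± 0.64 and was not called (edgeR adjusted p = 0.0414). With 1 sample left out at a time it ranged from 0.76, without CH replicate 1, to 2.61, without DMSO replicate 1, and was not called in any of these fits (edgeR adjusted p between 0.0119 and 0.269). Between 2i and DMSO it ranged likewise from 1.11, without 2i replicate 1, to 2.40, without DMSO replicate 1 (edgeR adjusted p between 0.0146 and 0.201). In a fit with a replicate block it was 1.72 and was called (edgeR adjusted p = 6.08e-04), which made 6 members called, and likewise between 2i and DMSO (1.69 in place of 1.58, edgeR adjusted p = 5.69e-04 in place of 0.0588). Without replicate 1 of every group, an alternative chosen after seeing the data, it was 1.58 in CH against DMSO (edgeR adjusted p = 2.80e-05) and 1.92 in 2i against DMSO (edgeR adjusted p = 1.83e-06).

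Znrf3 (chromosome 11, 5276324 to 5444847) varied less, with 20.7, 17.4 and 17.7 CPM in DMSO, 21.4, 21.1 and 20.4 CPM in Fgf2/Activin, 45.3, 31.9 and 28.8 CPM in CH and 36.0, 26.8 and 27.6 CPM in 2i. All samples with CHIR99021 were above all those without it, while CH overlapped 2i and Fgf2/Activin overlapped DMSO. The difference between CH and DMSO stayed under the fold minimum, at 0.92 ± 0.17 (edgeR adjusted p = 0.00129). It passed without CH replicate 3 (1.07) or without DMSO replicate 1 (1.01).

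Lgr5, a receptor for R-spondins that marks Wnt-dependent adult stem cells (chromosome 10, 115450311 to 115587780), and Apcdd1, a membrane glycoprotein that binds Wnt and Lrp5 (chromosome 18, 62922231 to 62961179), were not called in CH against DMSO. Lgr5 had 1, 6 and 13 counts in DMSO, 17, 15 and 11 in Fgf2/Activin, 3, 7 and 1 in CH and 0, 1 and 2 in 2i. Neighbours in the order from Fgf2/Activin through DMSO and CH to 2i all overlapped, and edgeR called none of the differences between them. Over the summed counts, the level in CH was 4.08 times that in 2i (exact 95% interval 1.08 to 22.8), and 2.85 times (interval 0.752 to 15.9) without 2i replicate 1 and 8.11 times (interval 1.18 to 349) without 2i replicate 3. As for Sp5, such intervals cover counting error only. Measured the same way, the level in Fgf2/Activin was 14.7 times that in 2i (exact 95% interval 4.70 to 73.9). Without 2i replicate 3, which held 2 of the 3 counts in 2i, it was 29.1 times (interval 4.96 to 1177). In DMSO the level was 6.62 times that in 2i (exact 95% interval 1.96 to 34.8), with a fitted log2 fold change of 2i over DMSO of -2.67 that was not called (edgeR adjusted p = 0.0541). With 1 sample left out at a time it ranged from -3.50, without 2i replicate 3, to -1.58, without DMSO replicate 3, and was called only without DMSO replicate 1 (-3.25, edgeR adjusted p = 0.00784). Apcdd1 ranged from 3.10 CPM in 2i replicate 2 to 8.51 CPM in CH replicate 1 over the 12 E14 samples, and neighbours in the order of means from CH through Fgf2/Activin and 2i to DMSO overlapped. All CH samples of Apcdd1 were above DMSO, by 0.78 ± 0.27 on the log2 scale, without a call (edgeR adjusted p = 0.035).

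Comparing 2i with CH asked what the Mek inhibitor adds in the presence of CHIR99021. Nkd1 was the 1 member called of 10, and it was lower in 2i, where 0.317% of all genes were called higher, 1.67% lower and 1.99% in either direction. The median log2 fold change was -0.22 over the members and -0.0033 over all genes. Nkd1 differed by -1.80 ± 0.30 on the log2 scale (edgeR adjusted p = 0.00408). The call was lost without 2i replicate 1 (edgeR adjusted p = 0.0155), 2 (0.0253) or 3 (0.0167), with log2 fold changes between -1.91 and -1.64, and in a fit of only the 6 samples compared (edgeR adjusted p = 0.0346). Nkd1 was the 1 member with all 2i samples below CH, as were 13.1% of all genes. Notum was the 1 member with all 2i samples above CH, as were 12.7% of all genes, by 0.77 ± 0.16 (edgeR adjusted p = 0.0147), which did not pass. A replicate block gave 672 genes called among all tested in place of 326, and Nkd1 was again the 1 member called.

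Of the 10 members, none was called between Fgf2/Activin and DMSO by edgeR or by DESeq2, where edgeR called 0.902% of all genes higher, 0.347% lower and 1.25% in either direction, and 3 members had an unadjusted p under 0.05, as did 16.9% of all genes. The samples did not overlap in 4 members that were higher and 1 that was lower in Fgf2/Activin, beside 11.8% and 12.5% of all genes. The median log2 fold change was 0.42 over the members and -0.021 over all genes. A replicate block gave 424 genes called among all tested in place of 205. The 4 were Axin2, Sp5, Notum and Apcdd1, and the 1 lower was Rnf43, at -1.30 ± 0.69 (edgeR adjusted p = 0.391) and at -0.49 without DMSO replicate 1 (edgeR adjusted p = 0.812). For Sp5, the ratio over the summed counts was 5.93 (exact 95% interval 2.03 to 23.6), and 15.8 (interval 2.56 to 649.7) without DMSO replicate 2. Notum differed by 0.85 ± 0.22 (edgeR adjusted p = 0.0529), and without replicate 1 of every group it was called, at 1.21 (edgeR adjusted p = 2.38e-04).

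Against Fgf2/Activin, 6 members were called in CH, all of them higher, beside 7.9% of all genes called higher, 10.3% lower and 18.2% in either direction. In 7 members all CH samples were above Fgf2/Activin and in 1 below, beside 27.5% and 28.5% of all genes. The 6 were the 5 called against DMSO and Rnf43, whose log2 fold change was 3.09 ± 0.69 (edgeR adjusted p = 0.00394). The call of Rnf43 was lost without CH replicate 1 (2.06, edgeR adjusted p = 0.0123) or without Fgf2/Activin replicate 1, 2 or 3 (between 3.01 and 3.16, edgeR adjusted p between 0.0161 and 0.0188). In 2i, 8 members were called against Fgf2/Activin, beside 9.13% of all genes called higher, 14.4% lower and 23.5% in either direction. In 7 members all 2i samples were above Fgf2/Activin and in 2 below, beside 31.1% and 32% of all genes. The same 6 genes were higher, and Nkd1 (-1.29 ± 0.29, edgeR adjusted p = 0.00358) and Lgr5 were lower. Here the call of Nkd1 was lost without 2i replicate 1 or 2 or Fgf2/Activin replicate 1 (-1.34, -1.12 and -1.16). That of Rnf43 was lost without 2i replicate 1 (2.41) or any 1 sample of Fgf2/Activin (between 2.80 and 2.95), and that of Lgr5 without any 1 of the 6 samples (log2 fold change between -4.54 and -3.23 in place of -3.71, edgeR adjusted p between 0.0141 and 0.0281). Between 2i and DMSO, 5 members were called, all higher, beside 8.37% of all genes called higher, 14% lower and 22.3% in either direction, and they were the same 5 as in CH. In 7 members all 2i samples were above DMSO and in 1, Nkd1, below, beside 28% and 29.1% of all genes. The median log2 fold change was 3.14 over the members and 0.0096 over all genes in CH against Fgf2/Activin, 3.13 and 0.0021 in 2i against Fgf2/Activin, and 2.42 and -0.0044 in 2i against DMSO. These comparisons share their samples with those above and are not independent of them.

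The comparison of 4OHT-treated with untreated Esrrb fl/fl cells asked what loss of Esrrb does to the members while Gsk3 is inhibited. Esrrb itself had 1211, 1333 and 1250 counts after 4OHT and 2680, 2146 and 2109 counts without it. All treated samples were below all untreated ones, at 60.8 against 120.5 CPM on average, with a log2 fold change of -0.99 ± 0.10 (edgeR adjusted p = 7.44e-05), just under the fold minimum. The counts are over the whole gene and do not separate the deleted exons from the others. No group of this line had 4OHT without the floxed allele, so exposure to 4OHT and deletion of Esrrb cannot be told apart.

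Of the 10 members, 5 were higher after 4OHT and none was lower, where 12.8% of all genes were called higher, 3.87% lower and 16.7% in either direction. The 5 were Nkd1, Rnf43, Sp5, Lgr5 and Dkk1. The median log2 fold change was 1.03 over the members and 0.0021 over all genes. In 8 members all treated samples were above all untreated ones, as they were in 34.4% of all genes, and no member was below, as 31.5% of all genes were.

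Nkd1 had the largest fold change of the members, from 1.70, 2.36 and 2.43 CPM in untreated to 18.7, 20.0 and 24.0 CPM in treated cells. Its groups were separated by a wide gap, and the log2 fold change was 3.27 ± 0.17 (edgeR adjusted p = 2.90e-06). Sp5 went from 32.1, 30.3 and 32.4 CPM to 124.7, 115 and 132 CPM. Both groups were tight, and the log2 fold change was 1.97 ± 0.07 (edgeR adjusted p = 5.99e-07). Axin2 was at 167, 164 and 178 CPM in untreated and 204, 202 and 210.4 CPM in treated cells. Its groups did not overlap, but the log2 fold change of 0.28 ± 0.05 was under the minimum (edgeR adjusted p = 0.00123).

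Of the secreted antagonists, Notum was at 63.7, 37.7 and 41.0 CPM in untreated and 65.9, 37.1 and 43.8 CPM in treated cells. Replicate 1 was the highest in both groups, which covered the same range (log2 fold change 0.05 ± 0.24, edgeR adjusted p = 0.881). Dkk1 had 19, 23 and 22 counts without 4OHT and 76, 41 and 52 counts with it. The groups did not overlap, and the log2 fold change was 1.29 ± 0.28 (edgeR adjusted p = 0.00375). That call was lost without untreated replicate 1, 2 or 3 (log2 fold change 1.22, 1.32 and 1.30, edgeR adjusted p = 0.0124, 0.0136 and 0.015), and without replicate 1 of both groups, where the log2 fold change was 0.94 (edgeR adjusted p = 0.00291).

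At the membrane, Rnf43 was at 2.44, 1.69 and 1.60 CPM in untreated and 13.5, 5.79 and 7.80 CPM in treated cells. Treated replicate 1 was the highest, and all treated samples were above the untreated ones (log2 fold change 2.24 ± 0.34, edgeR adjusted p = 5.58e-04). Its paralogue Znrf3 was at 39.9, 43.6 and 40.0 CPM in untreated and 73.9, 63.8 and 73.9 CPM in treated cells. The groups did not overlap, and the log2 fold change of 0.78 ± 0.08 was under the minimum (edgeR adjusted p = 5.37e-05). Per kilobase of exon, Znrf3 at 8.94 CPM per kb remained above Rnf43 at 1.38 CPM per kb after 4OHT.

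Lgr5 had 8, 12 and 16 counts in untreated and 31, 51 and 45 counts in treated cells. The treated samples were all higher, at a low level of 2.03 ± 0.48 CPM (SD, n = 3), with a log2 fold change of 1.70 ± 0.30 (edgeR adjusted p = 0.0014). Tnfrsf19 was at 59.4, 74.9 and 76.4 CPM in untreated and 81.7, 101 and 98.8 CPM in treated cells, without overlap and without a call (0.42 ± 0.11, edgeR adjusted p = 0.0109). Apcdd1 overlapped between the groups, at 8.55, 6.05 and 6.05 CPM and 10.1, 8.76 and 7.89 CPM (0.37 ± 0.17, edgeR adjusted p = 0.089).

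**Figure D2:**
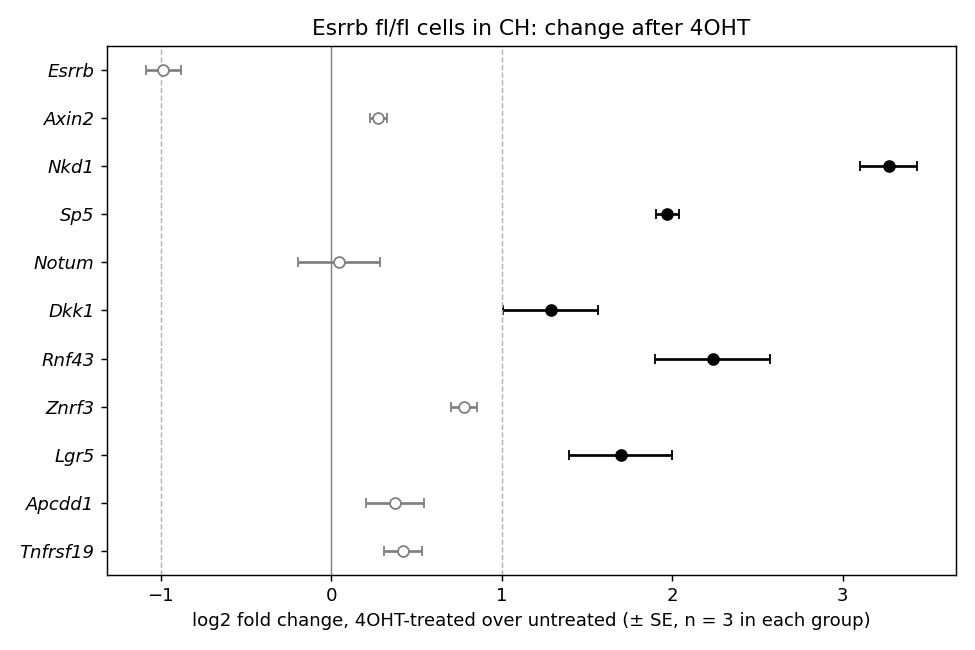
Log2 fold change of Esrrb and of the 10 members between 4OHT-treated and untreated Esrrb fl/fl cells in CH, with the SE as bars and n = 3 in each group. Filled points are called, open points are not, and dashed lines mark the fold minimum of 1 on the log2 scale. Nkd1 is farthest from 0, at 3.27, and Notum is at 0.05.

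Across both lines, the order of the members by level per kilobase was led by the same genes wherever CHIR99021 was present. In CH the first were Sp5, Axin2, Notum and Tnfrsf19, at 101, 35.3, 19.4 and 18.1 CPM per kb, and in 2i Sp5, Notum, Axin2 and Tnfrsf19, at 60.9, 33.1, 30.5 and 17.5 CPM per kb. Per kilobase of the longest transcript, Tnfrsf19 was just above Notum in CH, at 21.14 against 21.08 CPM per kb. In 2i Axin2 was then above Notum, at 39.4 against 36.0 CPM per kb. In untreated Esrrb fl/fl cells Axin2 was first, at 30.8 CPM per kb, ahead of Notum at 19.7, Sp5 at 15.1 and Tnfrsf19 at 14.8 CPM per kb. With the longest transcript, Tnfrsf19 was above Sp5 there, at 17.3 against 15.1 CPM per kb. After 4OHT Sp5 was first again, at 59.0 CPM per kb. In DMSO, Znrf3 was the highest, at 2.36 CPM per kb, followed by Tnfrsf19 at 1.85 and Axin2 at 1.42 CPM per kb.

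The levels of other cell types are given beside these results. The primitive streak and mesendoderm list of 7 markers (T, Mixl1, Eomes, Gsc, Evx1, Wnt3 and Tbx6) summed to 10.4, 15.6 and 15.1 CPM in DMSO and 16.0, 29.5 and 29.4 CPM in Fgf2/Activin. It summed to 697, 533 and 463 CPM in CH and 123, 89.6 and 87.7 CPM in 2i. In Esrrb fl/fl cells the sum was 80.8, 99.9 and 101.5 CPM without 4OHT and 474, 592 and 597 CPM with it. The list was thus high in CH and after 4OHT, and between the other groups in 2i and in untreated Esrrb fl/fl cells.

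T, itself a Wnt target, was the most abundant of the 7 in those 4 groups, and Eomes in DMSO and Fgf2/Activin. Of the 7 markers, 6 were tested. Between CH and DMSO 3 were called higher and 1 lower. The lower was Eomes, at 2.71 CPM on average in CH and 11.5 CPM in DMSO. Between 2i and CH 3 markers were lower, and after 4OHT 4 were higher. The call of Mixl1 between 2i and CH was lost without any 1 sample of 2i (log2 fold change between -4.43 and -4.16, edgeR adjusted p between 0.013 and 0.0208). Gsc, which was not tested, was at 0.113 CPM or less on average in every group. Wnt3, the ligand, was at 33.2 CPM after 4OHT and 0.78 CPM without it, a log2 fold change of 5.40 ± 0.13 (edgeR adjusted p = 1.66e-07). The part of these cells or genes in the members' levels was not tested.

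The general pluripotency list of 5, led by Pou5f1 outside DMSO, summed to 1441 CPM on average in DMSO, 1582 CPM in Fgf2/Activin, 2106 CPM in CH and 2549 CPM in 2i, and to 2159 CPM without and 1279 CPM with 4OHT in Esrrb fl/fl cells. The endoderm list of 5 markers summed to 2.56 CPM on average in DMSO, 1.81 CPM in Fgf2/Activin, 2.20 CPM in CH and 1.16 CPM in 2i. All 5 were tested there. Foxa2 was called higher in CH than in DMSO (log2 fold change 1.59) and lower in 2i than in CH (-2.80). Each call was lost in 5 of 6 fits with 1 sample left out (between 1.18 and 1.70, and between -2.89 and -2.61). Between 2i and DMSO, 1 marker was called lower. In Esrrb fl/fl cells the endoderm list summed to 1.70, 0.973 and 2.07 CPM without 4OHT and 4.23, 6.84 and 7.13 CPM with it, led by Pdgfra in both, and 2 of its 5 genes were tested. Pdgfra was called higher with all samples and without any 1 of them. Gata4 was called at 1.27, but not without treated replicate 2 or 3 or untreated replicate 2 or 3 (between 1.02 and 1.25, edgeR adjusted p between 0.0282 and 0.0362). The neural list of 3 summed to 1.75 CPM in DMSO and 1.61 CPM in CH on average, and in Esrrb fl/fl cells to 2.02, 2.15 and 1.86 CPM without and 0.681, 0.574 and 0.813 CPM with 4OHT, where the 1 gene tested, Pax6, was called lower. After 4OHT the endoderm sums were thus all higher and the neural sums all lower, both at low levels, and their part in the members' levels was not tested. The trophoblast list of 5 summed to 116, 79.8 and 70.0 CPM in CH and to 51.8, 32.3 and 35.7 CPM in 2i. It summed to 11.9, 3.16 and 3.01 CPM in DMSO and 1.14, 1.77 and 1.25 CPM in Fgf2/Activin, so that the 4 groups did not overlap. In CH Cdx2, also listed below among the Wnt-responsive genes, took the most, at 63.8 CPM on average, and Tfap2c was at 24.6 CPM. Elf5, Gata3 and Hand1 were there at only 0.107, 0.0796 and 0.118 CPM. Of the 2 genes of the list tested in E14 cells, Cdx2 was called lower in 2i than in CH, though not without 2i replicate 2 (edgeR adjusted p = 0.0143). In Esrrb fl/fl cells the list summed to 30.3, 20.0 and 18.8 CPM without and 27.8, 22.9 and 30.7 CPM with 4OHT, which overlapped. Of the 3 genes tested there, 1 was called higher, Cdx2, from 7.98 to 17.3 CPM on average, and it fell under the fold minimum without treated replicate 3 (0.96) or untreated replicate 3 (0.98). The naive list of 5, which holds Esrrb, summed to 87.3, 38.5 and 33.2 CPM in DMSO and 51.5, 30.9 and 27.4 CPM in Fgf2/Activin, against means of 874 CPM in CH and 1418 CPM in 2i. In Esrrb fl/fl cells it summed to 501 CPM without 4OHT and 228 CPM with it. The 4 formative epiblast markers summed to 2341, 3386 and 3676 CPM in DMSO and 2862, 3462 and 3308 CPM in Fgf2/Activin, which overlapped. Their sums were lower in every sample of CH, at 474, 868 and 796 CPM, and of 2i, at 305, 440.3 and 427 CPM. In Esrrb fl/fl cells the formative sum was 1173 CPM without 4OHT and 677 CPM with it, lower after 4OHT as was the naive sum. Dnmt3b, which was not called, made up most of it, at 1089 and 627 CPM. Of the 4 formative genes 1 was called higher, Fgf5, from 2.67 to 16.5 CPM on average. Another 1 was called lower, Otx2, from 69.1 to 22.9 CPM.

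Of the 69 other genes of the pathway, 63 were tested, and 11 were higher and 10 lower in CH than in DMSO, beside 7.51% and 10.2% of all genes. Receptors were called in both directions, with 2 of 16 higher and 4 lower. By edgeR's test, Fzd10 and Ror2, receptors for Wnt ligands, had log2 fold changes of 5.52 ± 0.18 and 2.89 ± 0.49, and Fzd2 of -2.32 ± 0.13. Of the R-spondins, the secreted agonists that bind Lgr receptors, 2 of 4 were tested, and 1 was called higher and 1 lower, Rspo1 at -3.86 ± 0.31. The higher was Rspo3, at 3.85 ± 0.55, from 0.101 to 1.43 CPM on average, under the mean level set for naming genes and named after its values were seen. Of the destruction complex and other transducers, 1 of 15 was called, Apc2 at -2.14 ± 0.32.

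Of the 13 nuclear partners 1 was higher and 2 were lower in CH, with Pygo1, a cofactor of β-catenin, at 2.49 ± 0.56 and Tcf7l1, the repressor, at -1.96 ± 0.35. Of the 9 tested genes that are paralogues of members or other antagonists, 2 were higher and 2 lower. Sp8, a relative of Sp5, was at 4.95 ± 0.61, Dkk3 at 2.67 ± 0.30 and Nkd2, the paralogue of Nkd1, at -1.80 ± 0.42. Of the 8 other responsive genes, 5 were higher, among them T at 10.16 ± 0.36 and Cdx2 at 9.49 ± 0.61. Cdx1 had no counts in DMSO and was at least 876-fold higher in CH, against a floor of 3 counts over the group.

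Of these named genes, 3 depended on single samples in CH against DMSO. Pygo1 was at 4.90, 1.60 and 1.56 CPM in CH and 0.267, 0.532 and 0.656 CPM in DMSO. Without CH replicate 1 its log2 fold change was 1.73 and not called (edgeR adjusted p = 0.0132), and the call was also lost without DMSO replicate 1 (2.18) or 2 (2.58). Nkd2 was at 2.69, 1.34 and 0.6 CPM in CH and 6.27, 5.26 and 4.67 CPM in DMSO. Its log2 fold change was -2.45 without CH replicate 1, and its call was lost without any other of the 6 samples (between -1.89 and -1.40, edgeR adjusted p between 0.0105 and 0.025). That of Cdx2 was 8.80 without DMSO replicate 1 and stayed called. Among the other genes counted, the call of Bmp4, 1 of the 5 responsive genes higher in CH, was lost without CH replicate 2 or 3 or DMSO replicate 2 or 3 (edgeR adjusted p between 0.0191 and 0.0245). Its log2 fold change was then between 1.75 and 2.08, in place of 2.04.

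After 4OHT, 18 of the 63 tested pathway genes were higher and 6 lower, beside 12.8% and 3.87% of all genes. Receptors were called higher in 7 of 16, with Lgr6 at 2.60 ± 0.35, Fzd1 at 1.84 ± 0.28 and Fzd10 at 1.71 ± 0.09, and 1 was lower. Both tested R-spondins were higher, Rspo1 at 2.30 ± 0.20 and Rspo3 at 1.58 ± 0.28. Apc2 was the 1 transducer called, at 1.38 ± 0.22. Among nuclear partners Pygo1 (2.42 ± 0.38) and Bcl9l (1.48 ± 0.12) were higher and Tle4, a corepressor, was lower (-1.29 ± 0.11). The change of Pygo1 was 3.12 without untreated replicate 3, which had the most CPM of its group, at 0.621 against 0.213 and 0.205.

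Kremen2, a co-receptor of Dkk1 at the cell surface, led the paralogues and other antagonists after 4OHT, from 0.711 to 11.7 CPM on average (log2 fold change 4.03 ± 0.18). Sp8 was higher as well (1.65 ± 0.20) and Sfrp4 lower (-2.14 ± 0.29), in a role where 3 genes were called higher and 2 lower. Of the responsive genes, T (3.23 ± 0.15) and Cd44 (2.96 ± 0.25) were higher and Cdx4 lower (-1.33 ± 0.26), and 3 of 8 were called higher and 2 lower. With 1 sample left out at a time, these counts lost the calls of Fzd2, Fzd8, Nkd2 and Cdx2 in 1, 4, 3 and 2 of the 6 fits.

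The genes closest to Axin2 over the 18 samples, among 13340 genes, were Zyg11a, Camkk2 and Slc6a7, with root mean square differences of 0.43, 0.44 and 0.47 between centred log2 levels. Camkk2, a kinase of the calmodulin pathway, was at 5.91 CPM on average in DMSO, 6.15 CPM in Fgf2/Activin, 81.0 CPM in CH and 71.0 CPM in 2i. It was at 59.6 CPM in untreated and 81.0 CPM in treated Esrrb fl/fl cells. The genes closest to Sp5 were T, Pglyrp1 and Nkx1-2, at 0.74, 0.91 and 1.00. T was at 534 CPM in CH and 91.0 CPM in 2i on average, a wider gap than that of Sp5, at 213 and 128 CPM.

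Promoter sequences, from 250 bases before to 50 after the gene start in RefSeq (GRCm38.p6), were found for 6 members, in 8 windows, and not for Notum, Znrf3, Lgr5 and Apcdd1. The TCF/LEF words CTTTGAT and CTTTGAA were searched on both strands. CTTTGAT was in 2 of the 8 windows and in 3.73% of all 32851 windows, and CTTTGAA in 1 of 8 and 5.13% of all. The word TCAAGGTCA, bound by Esrrb, was in none of the 8 windows and in 0.423% of all. The bases before the start are shown for Sp5, which had the widest range of levels, and for Axin2, which was high wherever CHIR99021 was present and whose window held neither word. The Sp5 bases lie upstream of the gene at chr2:70474673-70474922 on the plus strand, with CTTTGAT in capitals at -104 to -98, and the Axin2 bases at chr11:108920099-108920348 on the plus strand. Neither stretch overlaps an annotated exon.
Sp5: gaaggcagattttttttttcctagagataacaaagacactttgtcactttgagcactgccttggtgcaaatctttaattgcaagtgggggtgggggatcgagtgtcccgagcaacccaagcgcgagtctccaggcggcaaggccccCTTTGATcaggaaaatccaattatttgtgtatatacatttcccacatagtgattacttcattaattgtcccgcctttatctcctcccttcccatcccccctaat
Axin2: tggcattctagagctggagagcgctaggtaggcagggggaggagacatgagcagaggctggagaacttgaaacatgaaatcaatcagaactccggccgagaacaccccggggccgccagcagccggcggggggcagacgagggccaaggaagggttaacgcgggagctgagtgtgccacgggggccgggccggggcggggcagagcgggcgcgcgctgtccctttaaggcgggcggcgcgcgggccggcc

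The other matches were in Dkk1 and in 1 of 2 windows of Tnfrsf19, both on the minus strand, and 30 bases around each are shown with the word in capitals. That of Dkk1, CTTTGAA at -117 to -111, lies at chr19:30549596-30549625, within an annotated exon of Dkk1. That of Tnfrsf19, CTTTGAT read on the reverse strand at -202 to -196, lies at chr14:61038172-61038201, outside annotated exons. The words are matches of letters and not measured binding.
Dkk1: ctcctcccaaagCTTTGAAatcccatcccg
Tnfrsf19: cctgaatgggggATCAAAGtgacaaactag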

How the data were processed

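RNA was enriched for poly(A), and libraries were made with a directional kit. The values deposited by the authors are raw whole-number counts per Ensembl gene of GRCm38 (release not stated), made with TopHat2 on mm10 and HTSeq in its unstranded mode. Because strand was ignored, reads of a gene and an overlapping antisense gene are counted without distinction. Symbols, positions and exon lengths came from GENCODE M21, which held 49326 of the 49671 identifiers.

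Counts were scaled by TMM, filtered with filterByExpr and tested with glmQLFit and glmQLFTest in edgeR 4.0.16 (limma 3.58.1, R 4.3.3), with the 12 E14 samples in 1 fit and the 6 Esrrb fl/fl samples in another. Adjusted p-values are Benjamini-Hochberg over all genes tested, calls needed an adjusted p under 0.01 with a log2 fold change beyond 1 in size, and SE is the log2 fold change divided by the square root of the F statistic. Levels between genes are per kilobase of the union of exons. Where the samples of a group held at most 3 counts each, a ratio of summed counts with an exact 95% binomial interval is given, which covers counting error only. The steps were tested on simulated data. No pair of replicates agreed within counting noise. Transcripts were compared with blastn 2.17.0 and plots made in Python 3.11.15 (matplotlib 3.10.9).

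The members and the lists were chosen with earlier results of these data known. The genes named are the members, Esrrb, the 3 genes closest to Axin2 and to Sp5 by root mean square difference among genes that averaged 1 CPM or more, and per pathway role up to 3 genes with the largest absolute log2 fold change among those called in CH against DMSO or after 4OHT with the same minimum, beside markers of cell types. Antisense genes are named for their overlap, and Bmp4 and Fzd8 because their calls were lost in fits with 1 sample left out.

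Replicate numbers come from the titles. Deviations from group means of same-numbered CH and DMSO samples correlated at 0.513 on average across genes, against -0.204 for different numbers, and every same-numbered pair in all comparisons was at 0.238 or more, so a replicate block was an alternative. Replicate 1 stood apart, and replicates 2 and 3 were not told apart by number: CH replicate 2 correlated at 0.513 with DMSO replicate 3 and 0.432 with DMSO replicate 2, and treated Esrrb fl/fl replicate 3 at 0.333 with untreated replicate 2 and 0.238 with untreated replicate 3. The others were DESeq2 1.42.0 size factors, DESeq2's test, no filter, at least 10 counts in every sample, only the 6 samples compared, the longest transcript for lengths, each sample left out in turn and, chosen after seeing the data, replicate 1 left out of every group.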

Additional observations from a re-analysis of the deposited data

How the results depend on the processing

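Of 876 values of single members under the alternatives, 830 kept their direction and their side of the thresholds, and the cause of the other changes was not tested unless fewer genes or samples are named. With at least 10 counts in every sample, Sp5, Dkk1 and Lgr5 were no longer tested in E14 cells, nor Lgr5 in Esrrb fl/fl cells. Members called were then 3 in CH and 3 in 2i against DMSO and 5 in 2i and 4 in CH against Fgf2/Activin, and all genes called were 1755, 2236, 2332 and 1815. Between 2i and CH, all genes called were 605 with DESeq2's test, 672 with a replicate block, 100 with only the 6 samples compared, where 0 members were called, and 768 without replicate 1 of every group, a choice made after seeing the data. Between Fgf2/Activin and DMSO they were 379, 424, 87 and 499 in the same order, with 1 member called in the last. A replicate block changed no call of a member other than those of Rnf43. Without replicate 1 of every group, the log2 fold change of 2i over CH was 0.34 for Rnf43 and 0.0545 for Tnfrsf19, reversed in sign.

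With 1 sample left out at a time, all genes called ranged from 144 to 275 between 2i and CH, lowest without 2i replicate 2 or 3, and from 112 to 171 between Fgf2/Activin and DMSO, lowest without Fgf2/Activin replicate 2. Members called ranged from 0 to 1 between 2i and CH and from 5 to 7 between 2i and Fgf2/Activin. The log2 fold changes whose sign reversed, none of them called, ranged between 2i and CH from -0.38 to 0.10 for Axin2, -0.0927 to 0.52 for Dkk1, -0.69 to 0.82 for Rnf43 and -0.0903 to 0.0399 for Tnfrsf19. They ranged from -1.56 to 0.31 for Lgr5 in CH against DMSO, -0.0118 to 1.49 for Dkk1 in Fgf2/Activin against DMSO, -0.36 to 0.0896 for Apcdd1 in 2i against Fgf2/Activin and -0.23 to 0.31 for Notum after 4OHT. The order of 2 members by level per kilobase within a group was the same with the longest transcript in 262 of 270 pairs.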
